A study of Mus musculus with 24 samples.

Results

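The genes described are 33 transcription factors and transcriptional regulators that act while the pituitary gland forms and its hormone-producing cell types arise. They were taken by name, as every probe annotated to one of the 33 gene symbols, out of 19057 genes with a single symbol on the array, and were sorted into homeobox, Eya-Six, Sox, basic helix-loop-helix (bHLH) and other factors. Their RNA was measured in whole pituitary tissue from mice aged 8 weeks on 24 Illumina expression arrays, 1 array per sample. There were 6 arrays each of Cga-deficient (mutant) males, wild-type males, mutant females and wild-type females, and wild types were littermates of the mutants. The strain background was mixed (C57Bl6j 129S2SvPas) throughout. Cga encodes the alpha chain common to the pituitary glycoprotein hormones (TSH, LH and FSH), so mice without it cannot assemble them. Nothing in the labels says which allele was used, how many glands made up a sample or which animals shared a litter, and the p-values therefore measure the spread between these samples, which may be technical. The study asked what gene expression accompanies the thyrotrope adenomas of this model, and the design sets mutants against wild types in each sex.

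The anterior pituitary grows from Rathke's pouch, a fold of oral ectoderm, under BMP signals and signals from the overlying brain. Homeobox genes such as Hesx1, Pitx1, Lhx3 and Lhx4 shape the pouch, Notch target genes of the Hes and Hey families keep progenitors from differentiating, and later factors such as Tbx19, Pax7, Neurod1 and Insm1 are tied to particular hormone cells. Several of these genes stay on in the adult gland, in hormone cells or in its stem cells, which is where an array of adult tissue can see them.

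Values below are log2 intensities after background correction and quantile normalization, 1 probe per gene, and differences are log2 differences, mutant minus wild type or female minus male, ± standard error. A gene is called where limma's adjusted p over 12027 genes was under 0.05. On every array the median number of beads per probe was 42 to 44. The share of all probes detected was 47.1% to 49.0% in mutant males, 39.7% to 43.1% in wild-type males, 47.3% to 50.8% in mutant females and 43.9% to 46.4% in wild-type females. Background was wider on wild-type male arrays, where the spread of background signal was 11.7 to 16.9 intensity units, against 8.6 to 10.2 on the other arrays. Cga itself averaged 12.41 ± 0.16 in mutant males against 14.77 ± 0.092 in wild-type males, and 12.68 ± 0.27 in mutant females against 14.78 ± 0.099 in wild-type females (SD, n = 6 each). The hormone genes of the gland (Gh, Prl, Pomc, Tshb, Lhb and Fshb) were detected on all 24 arrays.

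Of the 33 regulators, 23 passed the filter on dim probes, which asked for a detection p under 0.05 on at least 6 arrays. The other 10 were Lhx2, Hesx1, Pax6, Pax7, Nkx2-2, Six6, Sox3, Neurod1, Nhlh2 and Gata3. For 8 of those no probe was detected on any array. One probe of Nkx2-2, a homeobox gene of the ventral neural tube, was detected on 1 mutant male and 2 mutant female arrays and on no wild-type array. The probe of Neurod1, a bHLH activator of Pomc in corticotropes, was detected on 1 mutant male and 1 mutant female array. The 13 probes of these 10 genes had raw signals between 65.2 and 125.1 in single arrays, with group medians between 73.9 and 108.7, so they lay in the range of the background in every group. Pax7, which marks melanotropes, and Hesx1, an early pouch repressor, were thus not detectable here, which is not the same as absent.

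By class, 6 of 11 homeobox genes, 4 of 5 Eya-Six genes, 3 of 4 Sox genes, 6 of 8 bHLH genes and 4 of 5 other factors were measured. Of the 23, 17 were detected on all 24 arrays. The 6 others were Otx1, Otx2 and Six3, missed on 1 or 2 wild-type male arrays only, and Lhx4, Six4 and Neurod2, which lay close to the detection limit. Lhx4 was detected on 5 of 6 mutant male, 1 of 6 wild-type male, 4 of 6 mutant female and 0 of 6 wild-type female arrays. Six4 was detected on 3 mutant male, 0 wild-type male, 3 mutant female and 0 wild-type female arrays. Median raw signals of Lhx4 were 124.2 in mutant and 124.5 in wild-type males, and 115.4 in mutant and 96.2 in wild-type females. Those of Six4 were 116.1 in mutant and 118.7 in wild-type males, and 119.5 in mutant and 106.2 in wild-type females. So in males the detection counts of both genes differed without a higher median raw signal in mutants. The share of all probes detected was also higher in mutants, and its part in these detection counts was not tested.

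**Figure D1:**
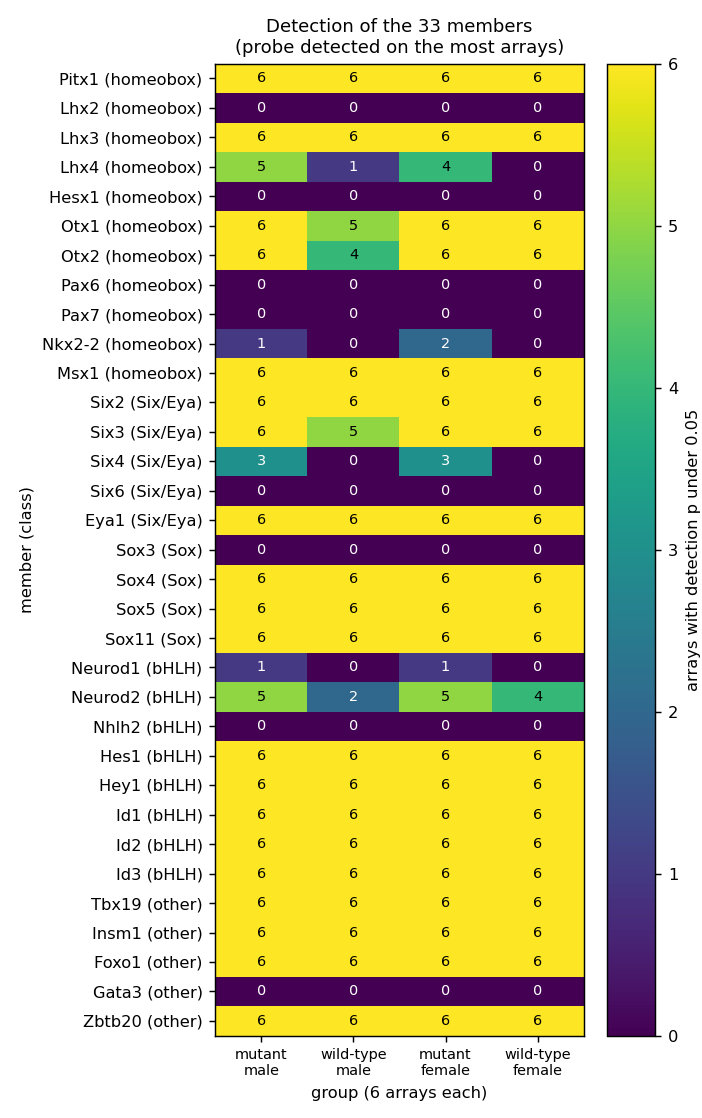
Number of arrays (of 6 per group) on which each of the 33 regulators was detected at a detection p under 0.05, for the probe of each gene detected on the most arrays; rows are genes by class, columns are mutant males, wild-type males, mutant females and wild-type females, and colour runs from 0 to 6 arrays. Rows at 6 throughout are the 17 genes detected everywhere, and 8 rows are at 0 throughout.

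In males, 8 of the 23 measured regulators were called, against 51.5% of all genes. Eya1, Hes1, Hey1 and Insm1 rose in mutants (25.0% of all genes were called higher), and Lhx3, Sox5, Foxo1 and Zbtb20 fell (26.5% were called lower). In females 13 were called, against 48.3% of all genes: Eya1, Hes1, Hey1 and Sox11 rose (22.8% of all genes) and Lhx3, Sox5, Foxo1, Zbtb20, Msx1, Id1, Id2, Id3 and Tbx19 fell (25.5%). So 4 regulators fell and 3 rose in both sexes, and no regulator was called in opposite directions. Neither genotype comparison called Pitx1, Lhx4, Otx1, Otx2, Six2, Six3, Six4, Sox4 or Neurod2. The median difference over the 23 was 0.10 in males and -0.22 in females, beside -0.01 and -0.03 over all genes, and the median size of the difference was 0.28 in males and 0.44 in females, beside 0.29 and 0.27. Mutant and wild-type arrays did not overlap for 4 of the 23 in males (30.7% of all genes) and for 8 in females (23.6%). These shares lie on either side of the background, which was itself high in both genotype comparisons.

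**Figure D2:**
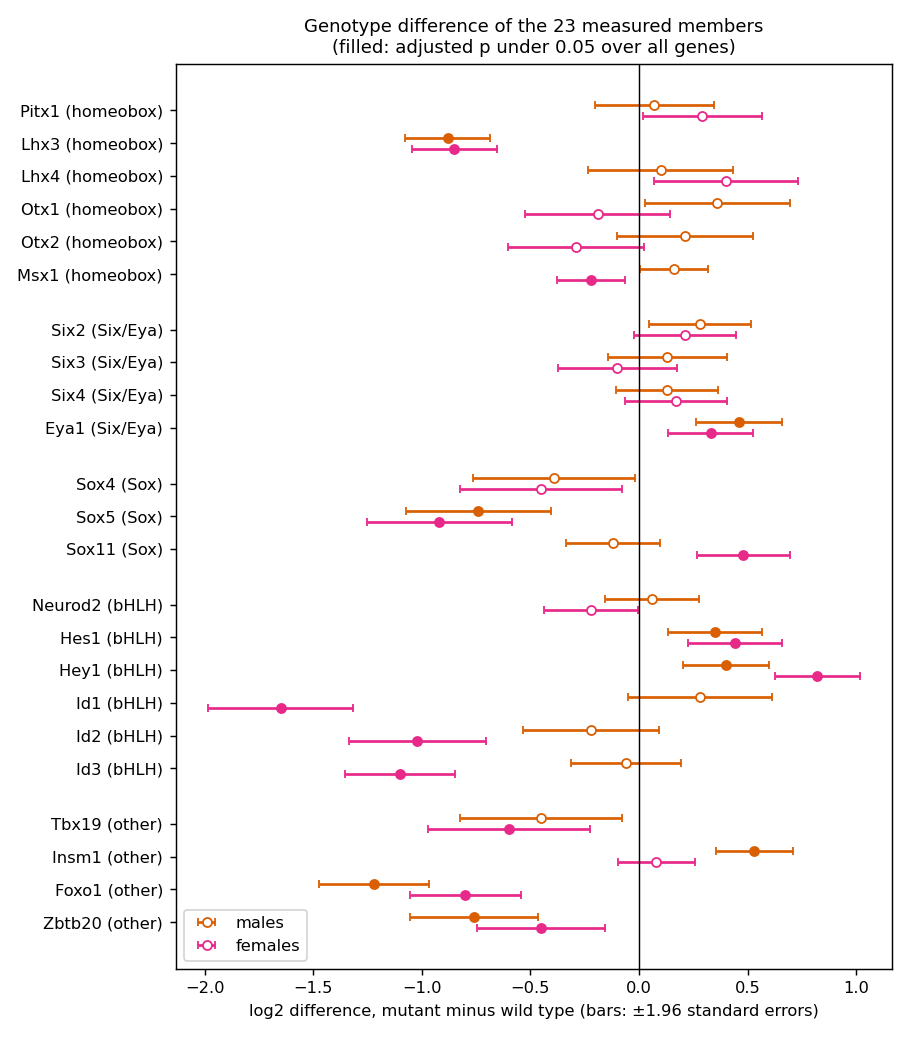
Log2 difference of mutant minus wild type for the 23 measured regulators, by class, in males (orange) and females (magenta); points are limma estimates, bars are 1.96 standard errors each way, and filled points are called at an adjusted p under 0.05. Lhx3, Sox5, Foxo1 and Zbtb20 sit left of 0 in both sexes, and Id1, Id2 and Id3 are filled in females only.

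Lhx3 was the only one of the 6 measured homeobox regulators called in both sexes. It encodes a LIM homeodomain protein that Rathke's pouch needs in order to grow and that binds promoters of pituitary hormone genes, Cga among them. In mutant males Lhx3 ran from 8.30 to 8.78 (median 8.41), against 9.11 to 9.56 (median 9.38) in wild-type males. In mutant females it ran from 8.26 to 8.68 (median 8.44), against 9.11 to 9.44 (median 9.31) in wild-type females. Every mutant array lay below every wild-type array of its sex. The difference was -0.88 ± 0.10 in males (1.84-fold lower; adjusted p = 2.8e-08) and -0.85 ± 0.10 in females (1.80-fold lower; adjusted p = 6.1e-08, limma). All 5 probes of Lhx3 were called lower in both sexes, by 0.46 to 1.03 in males and 0.83 to 1.07 in females, and they were designed against 2 RefSeq transcripts, 3 probes on one and 2 on the other. In bulk tissue, fewer cells that express a gene and less RNA per cell cannot be told apart, here and for each result that follows.

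Lhx3 has 2 annotated transcription starts in RefSeq (GRCm38.p6). Which start gave the RNA read by a probe was not tested, nor whether any probe reads only 1 transcript. The windows around both starts are printed. Each runs from 250 bases before to 50 after a start, 5′ to 3′ on the gene's strand. The upstream-most letters come first, and capitals mark GGCGCC, the palindromic core bound by BMP-regulated SMAD proteins.
Lhx3 start 1, chr2:26206526-26206825, minus strand: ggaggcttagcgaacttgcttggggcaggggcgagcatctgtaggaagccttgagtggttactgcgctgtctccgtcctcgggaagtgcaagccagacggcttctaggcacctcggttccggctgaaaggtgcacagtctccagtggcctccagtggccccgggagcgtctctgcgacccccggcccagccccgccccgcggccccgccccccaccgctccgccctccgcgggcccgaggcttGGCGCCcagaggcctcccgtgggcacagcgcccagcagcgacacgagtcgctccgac
Lhx3 start 2, chr2:26208200-26208499, minus strand: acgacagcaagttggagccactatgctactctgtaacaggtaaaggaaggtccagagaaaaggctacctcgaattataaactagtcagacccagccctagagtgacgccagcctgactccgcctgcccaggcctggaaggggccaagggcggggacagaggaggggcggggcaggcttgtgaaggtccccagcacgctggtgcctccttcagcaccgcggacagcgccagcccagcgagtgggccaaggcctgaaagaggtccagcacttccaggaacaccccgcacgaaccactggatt
The first window holds 1 GGCGCC, 7 bases before the start, and the second none. On both strands, 11.9% of 32851 such mouse windows hold GGCGCC. Neither Lhx3 window holds TAATCC (bound by bicoid-class homeodomains such as Pitx and Otx; 7.06% of windows), TAATTA (a core of many homeodomains; 5.29%) or TGGGAA (bound by the Notch effector RBPJ; 25.6%).

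Among the other measured homeobox genes, only Msx1 was called between genotypes, and only in females. Msx1, a BMP-responsive homeobox gene, ran from 10.29 to 10.56 (median 10.39) in mutant females, against 10.49 to 10.79 (median 10.66) in wild-type females. These ranges overlapped, and the difference was -0.22 ± 0.08 (1.16-fold lower; adjusted p = 0.033). In males the difference was 0.16 ± 0.08 (adjusted p = 0.11). The female call lay close to the threshold. It was lost without any 1 of mutant female 1, 2, 4 or 5 or wild-type female 1, 3, 4 or 6, though the value changed little (-0.21 to -0.19, adjusted p 0.051 to 0.08). The second Msx1 probe differed by 0.05 in females (adjusted p = 0.72). Pitx1, which marks all oral ectoderm derivatives of the gland, averaged 6.52 ± 0.31 in mutant males, 6.45 ± 0.28 in wild-type males, 6.66 ± 0.23 in mutant females and 6.36 ± 0.20 in wild-type females; it was not called (differences 0.07 and 0.29, adjusted p = 0.69 and 0.089). The paired-like head gap genes Otx1 and Otx2 had differences of 0.36 and 0.21 in males and -0.19 and -0.29 in females, with adjusted p of 0.085, 0.27, 0.38 and 0.13. Lhx4, a relative of Lhx3 that acts with it in the pouch, was near the detection limit, with differences of 0.10 ± 0.17 and 0.40 ± 0.17 (adjusted p = 0.66 and 0.059).

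Among the Eya-Six genes, Eya1 rose in both sexes. Six2, Six3 and Six4 encode DNA-binding homeodomain proteins, and Eya1 a phosphatase that serves such proteins as coactivator. Eya1 ran from 9.30 to 9.51 (median 9.48) in mutant males, against 8.80 to 9.31 (median 8.94) in wild-type males. It ran from 9.20 to 9.64 (median 9.34) in mutant females, against 8.61 to 9.22 (median 9.13) in wild-type females. The ranges met only at their edges. The difference was 0.46 ± 0.10 in males (1.37-fold higher; adjusted p = 0.00058) and 0.33 ± 0.10 in females (1.26-fold higher; adjusted p = 0.0091). Of its 4 probes, 2 were called higher in each sex, and with the mean of the 4 probes the female difference was 0.19 (adjusted p = 0.065). Its partners did not pass: the Six2 difference was 0.28 in males (adjusted p = 0.051) and 0.21 in females (adjusted p = 0.14), that of Six3 0.13 and -0.10 and that of Six4, near the detection limit, 0.13 and 0.17.

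Sox5 fell in both sexes, and of the SoxC genes Sox11 rose in females and Sox4 was not called. Sox5 belongs to the SoxD group, which binds DNA but has no activation domain of its own. It ran from 7.54 to 8.72 (median 8.25) in mutant males, against 8.63 to 9.52 (median 8.83) in wild-type males. In mutant females it ran from 7.43 to 8.25 (median 7.76), against 8.45 to 8.96 (median 8.73) in wild-type females. The female groups were apart and the male groups overlapped. The differences were -0.74 ± 0.17 (1.67-fold lower; adjusted p = 0.00083) in males and -0.92 ± 0.17 (1.89-fold lower; adjusted p = 8.6e-05) in females. Of 5 kept Sox5 probes, 4 were called lower in males and 3 in females. Sox4 had differences of -0.39 ± 0.19 in males (adjusted p = 0.087) and -0.45 ± 0.19 in females (adjusted p = 0.051), and its spread between arrays of a group, 0.36 on the log2 scale, was among the widest of the 23 beside a median of 0.21 over all genes. Sox11, known from neuronal and other progenitors, ran from 10.34 to 10.66 (median 10.47) in mutant females, against 9.85 to 10.26 (median 9.99) in wild-type females. The female groups did not overlap, and Sox11 was 1.39-fold higher in mutants (0.48 ± 0.11; adjusted p = 0.00063), while in males the difference was -0.12 ± 0.11 (adjusted p = 0.35). The second kept Sox11 probe was called higher in both sexes, by 0.33 in males (adjusted p = 0.022) and 0.75 in females (adjusted p = 8.5e-06), so the probes disagree for males.

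The Notch target genes Hes1 and Hey1 rose in both sexes. Both encode bHLH repressors, and Hes1 holds pituitary progenitors in cycle in the mouse embryo. Hey1 ran from 10.53 to 10.95 (median 10.80) in mutant males, against 10.11 to 10.70 (median 10.32) in wild-type males. It ran from 10.43 to 10.86 (median 10.60) in mutant females, against 9.65 to 9.97 (median 9.82) in wild-type females. The female groups were clearly apart, and the male groups overlapped. The difference was 0.40 ± 0.10 in males (1.32-fold higher; adjusted p = 0.0021) and 0.82 ± 0.10 in females (1.77-fold higher; adjusted p = 2.9e-07). Hes1 averaged 8.25 ± 0.17 in mutant males against 7.90 ± 0.22 in wild-type males, and 8.13 ± 0.19 in mutant females against 7.69 ± 0.21 in wild-type females. Its ranges overlapped in both sexes, and it was 1.28-fold higher in males (adjusted p = 0.011) and 1.36-fold higher in females (adjusted p = 0.0023). Neurod2, a neuronal bHLH activator, was near the detection limit and not called (0.06 and -0.22; adjusted p = 0.69 and 0.098).

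**Figure D3:**
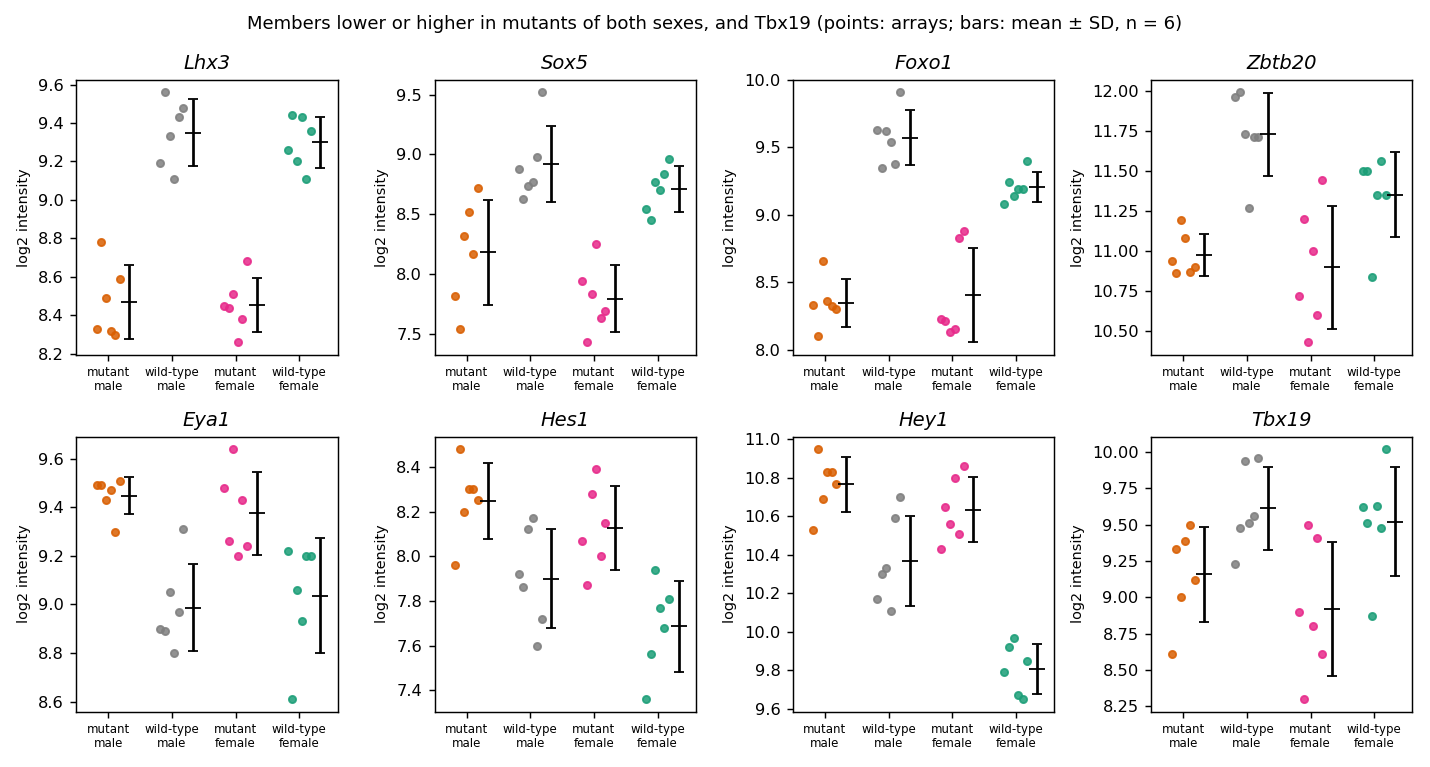
Log2 intensity on every array for Lhx3, Sox5, Foxo1, Zbtb20, Eya1, Hes1, Hey1 and Tbx19 in mutant males, wild-type males, mutant females and wild-type females; points are single arrays and the bar beside them is the mean ± SD (n = 6). The mutant points of Lhx3 and Foxo1 lie wholly below the wild-type points of the same sex, and those of Hey1 lie wholly above in females.

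The Id genes fell in mutant females and not in mutant males. Id proteins have a helix-loop-helix without the basic region that binds DNA, so they hold E proteins away from DNA, and they are standard target genes of BMP signalling. Id1 ran from 6.41 to 7.5 (median 7.15) in mutant females, against 8.39 to 8.98 (median 8.80) in wild-type females. In mutant males it ran from 6.92 to 7.36 (median 7.11), against 6.18 to 7.19 (median 6.99) in wild-type males. The wild-type females were the high group, and the 3 other groups overlapped with each other. Id1 was 3.15-fold lower in mutant females (-1.65 ± 0.17; adjusted p = 1.6e-08), the largest difference of the 23 in either genotype comparison, and in males the difference was 0.28 ± 0.17 (adjusted p = 0.19). Id3 ran from 6.29 to 6.80 (median 6.70) in mutant females, against 7.24 to 8.16 (median 7.79) in wild-type females. It was 2.14-fold lower in females (-1.10 ± 0.13; adjusted p = 6.5e-08), and the male difference was -0.06 ± 0.13 (adjusted p = 0.72). Id2 ran from 6.11 to 6.68 (median 6.54) in mutant females, against 7.07 to 8.04 (median 7.48) in wild-type females. It was 2.03-fold lower in females (-1.02 ± 0.16; adjusted p = 5.8e-06), and the male difference was -0.22 ± 0.16 (adjusted p = 0.24). A second Id2 probe gave -1.19 in females (adjusted p = 3.8e-08) and 0.00 in males. Id4, the fourth gene of the family, was not called (0.01 and -0.27; adjusted p = 0.96 and 0.26).

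The windows around the starts of Id2 and Id3 are printed because the 2 genes moved together; they come from RefSeq (GRCm38.p6), with the same limits and with GGCGCC in capitals. None is given for Id1 in the table used.
Id2, chr12:25096043-25096342, minus strand: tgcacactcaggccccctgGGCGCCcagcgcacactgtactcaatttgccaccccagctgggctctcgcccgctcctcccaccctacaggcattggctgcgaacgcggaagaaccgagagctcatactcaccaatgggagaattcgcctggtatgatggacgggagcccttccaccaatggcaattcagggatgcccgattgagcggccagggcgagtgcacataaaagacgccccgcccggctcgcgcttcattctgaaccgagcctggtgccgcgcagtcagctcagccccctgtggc
Id3, chr4:136143572-136143871, plus strand: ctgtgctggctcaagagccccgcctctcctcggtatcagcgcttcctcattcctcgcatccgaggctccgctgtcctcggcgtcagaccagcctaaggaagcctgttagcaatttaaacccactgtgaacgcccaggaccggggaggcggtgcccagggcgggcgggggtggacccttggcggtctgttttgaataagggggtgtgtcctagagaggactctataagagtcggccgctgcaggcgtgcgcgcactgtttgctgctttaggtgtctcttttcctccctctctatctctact
The Id2 window holds 1 GGCGCC, 231 bases before the start, and the Id3 window holds none of the 4 motifs searched. Of the 33 genes, 25 have at least 1 such window in the table. Besides Lhx3 and Id2, GGCGCC lies in windows of Lhx2, Six6 and Gata3, which were not detected on any array. The windows of the called genes Msx1, Sox5, Sox11, Tbx19, Foxo1 and Zbtb20 hold no GGCGCC.

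Of the remaining factors, Foxo1 and Zbtb20 fell in both sexes. Foxo1 is a forkhead factor that insulin signalling keeps out of the nucleus and that growth hormone cells need to mature in the mouse. It ran from 8.10 to 8.66 (median 8.33) in mutant males, against 9.35 to 9.91 (median 9.58) in wild-type males. It ran from 8.13 to 8.88 (median 8.22) in mutant females, against 9.08 to 9.40 (median 9.19) in wild-type females. The groups did not overlap in either sex, and 2 of the 6 mutant females (8.83 and 8.88) lay above the other 4. Foxo1 was 2.33-fold lower in males (-1.22 ± 0.13; adjusted p = 1.2e-08) and 1.74-fold lower in females (-0.80 ± 0.13; adjusted p = 1.1e-05). A dimmer second probe, detected on 14 arrays, gave -1.23 in males (adjusted p = 1.2e-05) and -0.27 in females (adjusted p = 0.28).

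Zbtb20 encodes a zinc finger repressor that prolactin cells need to arise in the mouse. It ran from 10.86 to 11.19 (median 10.92) in mutant males, against 11.27 to 11.99 (median 11.72) in wild-type males, with no overlap. In mutant females it ran from 10.43 to 11.44 (median 10.86), against 10.84 to 11.56 (median 11.43) in wild-type females, with overlap. It was 1.69-fold lower in males (adjusted p = 0.00015) and 1.37-fold lower in females (adjusted p = 0.015). The probes disagreed in females, where the second one gave 0.09 (adjusted p = 0.68) and the mean of both -0.18 (adjusted p = 0.25).

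Tbx19, the T-box activator of Pomc in corticotropes and melanotropes, was called in females only. It ran from 8.30 to 9.50 (median 8.85) in mutant females, against 8.87 to 10.02 (median 9.56) in wild-type females. In mutant males it ran from 8.61 to 9.50 (median 9.23), against 9.23 to 9.96 (median 9.54) in wild-type males. All 4 groups overlapped, and Tbx19 had the widest spread within groups of the 23, 0.37. It was 1.52-fold lower in females (-0.60 ± 0.19; adjusted p = 0.013), and in males the difference was -0.45 ± 0.19 (adjusted p = 0.054). These differences were not shown to differ between the sexes (adjusted p = 0.76). Pomc, close to the top of the array's range, differed by 0.03 in males and 0.06 in females and was not called.

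Insm1, a zinc finger factor of endocrine and neuroendocrine cells, rose in males. It ran from 11.20 to 11.43 (median 11.33) in mutant males, against 10.51 to 11.04 (median 10.76) in wild-type males. In mutant females it ran from 11.16 to 11.48 (median 11.27), against 11.09 to 11.30 (median 11.22) in wild-type females. The wild-type males stood below the 3 other groups with no overlap. The difference was 0.53 ± 0.09 in males (1.44-fold higher; adjusted p = 1.1e-05) and 0.08 ± 0.09 in females (adjusted p = 0.44).

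The genotype difference itself differed between the sexes for 6 of the 23 regulators, against 13.6% of all genes (limma interaction term, female minus male). Sox11 had the higher value in females (0.60 ± 0.15; adjusted p = 0.0094; 7.25% of all genes were called in this direction). Id1 (-1.93 ± 0.25; adjusted p = 8.2e-06), Id3 (-1.04 ± 0.18; adjusted p = 0.00031), Id2 (-0.80 ± 0.22; adjusted p = 0.017), Insm1 (-0.45 ± 0.12; adjusted p = 0.016) and Msx1 (-0.38 ± 0.12; adjusted p = 0.032) had the lower (6.36%). Hey1, at 0.42 ± 0.15, missed the threshold (adjusted p = 0.053), and for Lhx3 the term was 0.03 ± 0.14 (adjusted p = 0.90). Arrays with a background spread above the median of all arrays were 2 mutant males, all 6 wild-type males, 1 mutant female and 1 wild-type female. Those outside the wild-type males had a spread of 9.9 to 10.2 intensity units, against 11.7 to 16.9 in wild-type males. A block of the high arrays nearly follows the wild-type male group, so it cannot tell background apart from that group. With this block, 3 of the 6 remained called, Id1, Id3 and Sox11. The values for Id2, Insm1 and Msx1 were -0.77, -0.41 and -0.38 (adjusted p = 0.055, 0.062 and 0.077). The probes of Msx1 disagreed on this term: the second one gave 0.00 (adjusted p = 0.99) and the mean of both -0.19 (adjusted p = 0.26). The second kept Sox11 probe gave 0.43 (adjusted p = 0.081) and that of Id2 -1.18 (adjusted p = 0.00014). A dimmer probe was called for Foxo1 (0.95, adjusted p = 0.023) and Zbtb20 (0.77, adjusted p = 0.031). The same held for Sox5 (0.66, adjusted p = 0.0067) and Eya1 (-0.50, adjusted p = 0.016). With the mean of a gene's probes, Foxo1 (0.69), Zbtb20 (0.54) and Hey1 (0.42) gained a call (adjusted p = 0.03, 0.039 and 0.047). The Msx1 term also lost its call without mutant male 4 or 6, wild-type male 1 or 5, mutant female 2 or 5 or wild-type female 3 or 4, with values of -0.37 to -0.34.

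**Figure D4:**
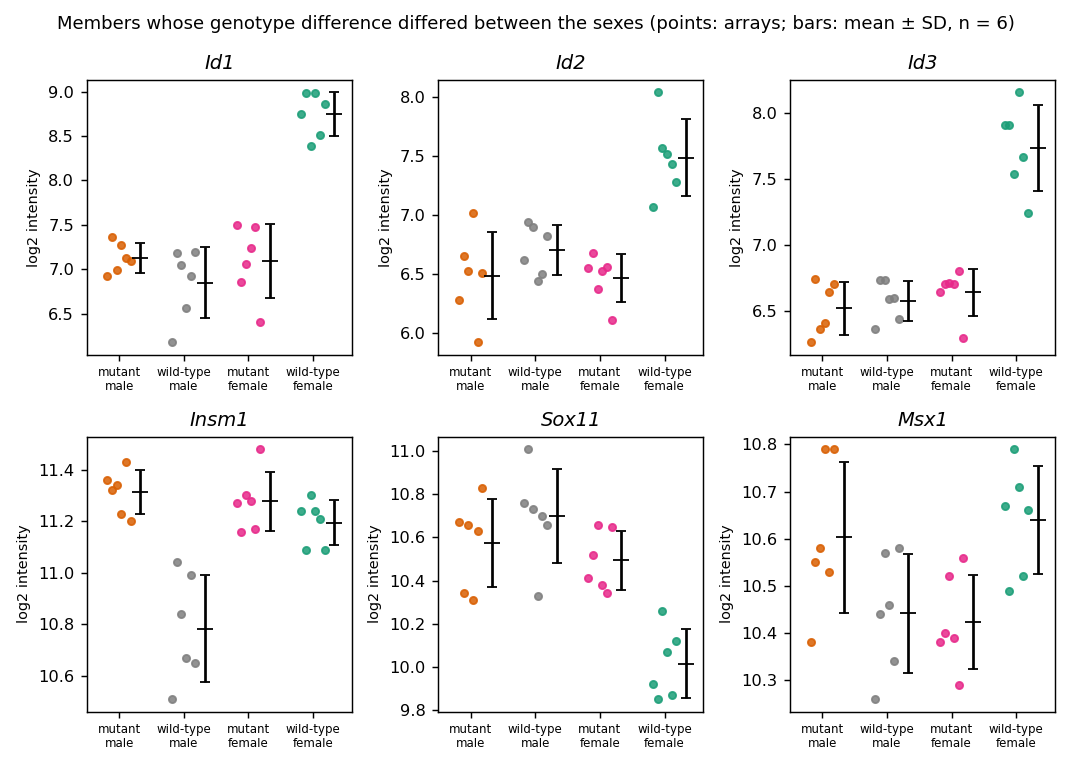
Log2 intensity on every array for the 6 regulators whose genotype difference differed between the sexes, in mutant males, wild-type males, mutant females and wild-type females; points are single arrays and the bar beside them is the mean ± SD (n = 6). Wild-type females stand above the 3 other groups for Id1, Id2 and Id3 and below them for Sox11, and wild-type males stand below the others for Insm1.

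Between the sexes, wild types differed in 9 of the 23 regulators, against 27.3% of all genes. This comparison shares its wild-type arrays with the genotype comparisons, so the values are set side by side. Id1 was 3.72-fold higher in wild-type females than in wild-type males (1.89 ± 0.17; adjusted p = 1.4e-08), Id3 2.24-fold (1.16 ± 0.13; adjusted p = 1.7e-07) and Id2 1.72-fold (0.79 ± 0.16; adjusted p = 0.00049), each with no overlap. Insm1 was 1.33-fold higher (adjusted p = 0.00083), and Six3 1.35-fold (adjusted p = 0.023); 12.5% of all genes were called higher. Lower in wild-type females were Sox11 by 1.61-fold (adjusted p = 3.4e-05), Hey1 by 1.47-fold (adjusted p = 0.00025) and Foxo1 by 1.29-fold (adjusted p = 0.036); 14.8% of all genes were called lower. Lhx4 was also called lower (adjusted p = 0.014), but it was detected on 0 wild-type female and 1 wild-type male arrays, so no fold is given. The groups did not overlap for 7 of the 23, beside 11.1% of all genes. A dimmer probe was called for 4 regulators whose brightest probe was not. These were Zbtb20 (1 of 2 kept probes, -0.69, adjusted p = 0.0036) and Sox5 (1 of 5, -0.68, adjusted p = 6.6e-05). The others were Eya1 (1 of 4, 0.43, adjusted p = 0.0016) and Lhx3 (1 of 5, 0.35, adjusted p = 0.031). With the mean of its probes, Zbtb20 was called (-0.53, adjusted p = 0.0023). The background block holds all 6 wild-type males and 1 wild-type female, so it nearly follows sex here and cannot tell background apart from it. With that block 6 of the 9 remained called, and the values for Lhx4, Six3 and Foxo1 were -0.46, 0.45 and -0.20 (adjusted p = 0.19, 0.13 and 0.47). The calls of Six3 and Foxo1 also lay close to the threshold. Six3 lost its call without any 1 of wild-type male 1 or 2 or wild-type female 3 or 4 (0.37 to 0.41). Foxo1 lost its call without any 1 of wild-type male 1, 3 or 6 or wild-type female 1, 3, 4 or 5 (-0.36 to -0.30).

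Between mutant females and mutant males, none of the 23 was called by limma, and 2 had an unadjusted p under 0.05; of all genes, 0.0665% were called. No regulator's mutant groups were apart, beside 0.258% of all genes. Id1, the widest of the sex differences in wild types, averaged 7.09 ± 0.42 in mutant females and 7.13 ± 0.17 in mutant males (difference -0.04 ± 0.17; adjusted p = 0.98). Sox11 differed by -0.08 ± 0.11, Hey1 by -0.13 ± 0.10, Id2 by -0.02 ± 0.16, Id3 by 0.12 ± 0.13 and Insm1 by -0.04 ± 0.09.

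**Figure D5:**
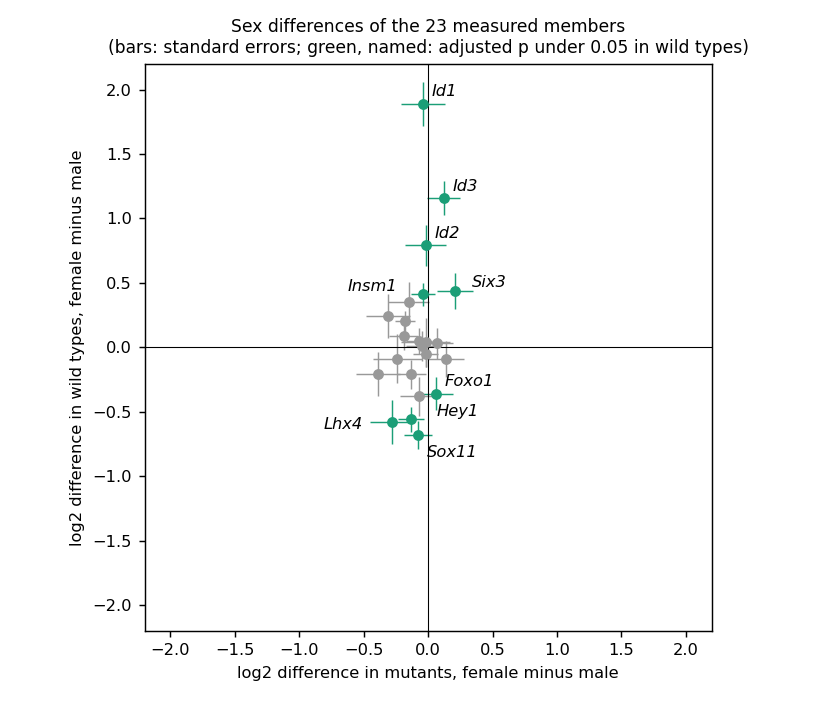
Log2 difference of female minus male in wild types (vertical) against the same in mutants (horizontal) for the 23 measured regulators; bars are standard errors, and the 9 genes called in wild types are green and named. The points spread along the vertical axis, up to 1.89 for Id1, and stay near 0 on the horizontal one.

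Genes of the surrounding pathways are given next, and no list was tested as a set. Beside the counts stand the shares over all genes: 25% called higher and 26.5% lower in males, and 22.8% higher and 25.5% lower in females. Of 20 further pituitary lineage factors, 12 were measured, and 5 were called higher and 2 lower in each sex (list median 0.32 in males and 0.18 in females). The 2 that fell were bHLH genes: Neurod4, which helps growth hormone cells arise in the mouse, averaged 7.16 ± 0.17 in mutant males against 9.58 ± 0.39 in wild-type males, and 6.59 ± 0.21 in mutant females against 10.67 ± 0.51 in wild-type females (differences -2.43 and -4.08; adjusted p = 4.2e-11 and 1.3e-15). Neurog1, a proneural bHLH gene, averaged 5.51 ± 0.55 in mutant males against 10.20 ± 0.26 in wild-type males, and 5.29 ± 0.25 in mutant females against 8.93 ± 0.15 in wild-type females (adjusted p = 4.3e-17 and 5.7e-15). It was detected on 4 mutant male and 3 mutant female arrays and on all wild-type arrays. Isl1, a LIM homeobox gene of thyrotropes and gonadotropes, rose by 1.25 in males (adjusted p = 2.8e-09) and by 1.59 in females (adjusted p = 3.8e-11), the opposite direction to Lhx3 of the same class.

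Of 18 cofactors of LIM and Eya-Six proteins, 16 were measured. In males 7 were called higher and 3 lower, and in females 3 higher and 3 lower. Lmo4, a LIM-only protein that competes for the same LIM-binding cofactors as Lhx3, rose by 0.40 in males (adjusted p = 0.004) and 0.63 in females (adjusted p = 4.2e-05). Tle4, a Groucho corepressor, differed by -0.17 in males (adjusted p = 0.099) and fell by 0.49 in females (adjusted p = 4.6e-05). Dach1, which works with Eya-Six proteins, was at least 1.07-fold higher in mutant males (5.73 ± 0.24 against 5.09 ± 0.28 in wild-type males, adjusted p = 0.00018), where it was not well above background on any wild-type male array. In females it differed by 0.05 (adjusted p = 0.76).

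In the Notch pathway 16 of 22 genes beside Hes1 and Hey1 were measured, with 6 called higher and 4 lower in males and 7 higher and 2 lower in females (list median 0.13 and 0.16). Hes6, which opposes Hes1, rose by 1.57 in males (adjusted p = 8.8e-10) and by 1.27 in females (adjusted p = 4e-08). Maml2, a coactivator of cleaved Notch, rose by 1.20 and 1.08 (adjusted p = 1.6e-09 and 1.2e-08). Nrarp, a Notch target that dampens the signal, rose by 0.45 and 0.90 (adjusted p = 0.0071 and 4.6e-06). The Hey1 relatives Hey2 and Heyl fell in both sexes, by 0.41 and 0.61 in males (adjusted p = 0.021 and 0.0005) and by 0.42 each in females (adjusted p = 0.022 and 0.012), so the Hey genes did not move as one.

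Of 23 genes of the BMP pathway and E proteins, 17 were measured, with 3 called higher and 3 lower in males and 6 higher and 1 lower in females (list median 0.02 and 0.23). Bmp4, the BMP that starts the pouch, was 2.09-fold higher in mutant males (adjusted p = 4.7e-06) and in mutant females the factor was 2.06 (adjusted p = 7.3e-06). Grem1, a secreted BMP antagonist, averaged 6.22 ± 0.47 in mutant males against 7.36 ± 0.25 in wild-type males, and 5.76 ± 0.21 in mutant females against 5.0 ± 0.23 in wild-type females. It fell by 1.14 in males (adjusted p = 2.7e-06) and was at least 1.29-fold higher in mutant females (adjusted p = 0.00045), as no wild-type female array had it well above background. Between wild types it was at least 3.90-fold lower in females than in males (adjusted p = 9.1e-11). Bmp6, near the detection limit, was lower in both sexes (adjusted p = 0.016 in males and 0.00094 in females), in females by at least 1.22-fold. An at least N-fold value sets the brighter group's mean against the dim group with every dim array lifted at least to its weakest detected probe.

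Marker genes of hormone and other cells also differed between the groups, and their part in the results above was not tested. Over all genes, 51.5% were called between genotypes in males, 48.3% in females and 27.3% between wild-type sexes. Summed levels below are sums of normalized intensity over the measured markers. Such a sum mostly follows the brightest marker. That is Prl for lactotropes, Gh for somatotropes, Tshb for thyrotropes, Pomc for corticotropes and Lhb for gonadotropes. Group means of Prl ran from 14.4 to 14.9, and no other lactotrope marker averaged above 10.39 in any group. All 5 lactotrope markers were lower in mutant females, and their sum was 13100 to 30200 in mutant females and 30700 to 35000 in wild-type females, without overlap. In mutant males, where no Id gene was called, 3 of the 5 were lower (log2 differences of -4.21 for Agtr1a, -2.40 for Angpt1 and -2.05 for Esr1). Prl was not called there (-0.10), and the sums overlapped, at 20600 to 30700 in mutant males and 28300 to 33300 in wild-type males. Between wild-type females and wild-type males, 3 lactotrope markers were higher in females and Agtr1a was lower (-1.50; adjusted p = 2.4e-07). Of 4 somatotrope markers, 3 were lower in mutant males and 4 in mutant females, as were Foxo1 and Lhx3, with sums of 30000 to 32300 in mutant males against 35400 to 40300 in wild-type males and 28700 to 33600 in mutant females against 35000 to 40400 in wild-type females. Neurod4, a somatotrope marker, was also counted among the lineage factors above. So were Gata2 (thyrotrope), Nr5a1 and Foxl2 (gonadotrope), and Sox2 and Sox9 (folliculostellate and stem cell). The 4 measured thyrotrope markers were higher in both sexes, with sums of 36800 to 38600 in mutant males against 20900 to 26800 in wild-type males and 37500 to 41000 in mutant females against 11900 to 20500 in wild-type females.

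Of 5 gonadotrope markers, 2 were lower in mutant males, with sums of 8210 to 11900 against 18100 to 25400 in wild-type males, and 3 were higher and 2 lower in mutant females, with sums of 6370 to 8870 against 7930 to 11300 in wild-type females. In mutant females Lhb was among the lower (-0.57) and Fshb among the higher (2.11). Of 4 measured melanotrope markers, 1 was higher and 1 lower in mutant males and 1 higher in mutant females, and the sums overlapped in both sexes (2750 to 5040 in mutant males against 1680 to 2910 in wild-type males, and 3170 to 5590 in mutant females against 1830 to 4140 in wild-type females).

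Endothelial cells also express Id and Hey genes. Of 9 endothelial markers, 4 were higher and 2 lower in mutant females and 3 higher and 2 lower in mutant males. Their sums overlapped, at 5220 to 6210 in mutant females and 5050 to 6550 in wild-type females, and at 5600 to 6890 in mutant males and 6110 to 6680 in wild-type males. Of 7 measured folliculostellate and stem cell markers, 1 was higher and 4 lower in mutant females and 1 higher and 1 lower in mutant males, with overlapping sums of 8100 to 12100 against 10900 to 16500 in females and 9410 to 20200 against 12000 to 14200 in males. Of 3 measured corticotrope markers none was called in females, where Tbx19 was, and in mutant males Cdh8 was higher (0.66) and Crhr1 lower (-0.33). The corticotrope sums overlapped in both sexes (28700 to 33500 in mutant females and 24900 to 34200 in wild-type females; mutant males had 30500 to 35800 and wild-type males 28100 to 34900). Of 8 fibroblast and pericyte markers, 2 were higher and 2 lower in mutant males and 4 higher and 2 lower in mutant females, with overlapping sums (4270 to 6540 in mutant males against 5700 to 8340 in wild-type males, and 4960 to 6510 in mutant females against 4570 to 5730 in wild-type females). Of 2 measured red blood cell markers neither was called between genotypes, and both were lower in wild-type females than in wild-type males (-0.83 for Hba-a1 and -1.18 for Alas2; adjusted p = 0.04 and 0.038). All 6 measured macrophage and leukocyte markers were higher in mutants of both sexes, with sums of 7020 to 11900 in mutant males against 2460 to 3890 in wild-type males and 5700 to 8160 in mutant females against 3070 to 4850 in wild-type females. Of 8 measured posterior lobe markers, 1 was higher and 1 lower in males and 1 higher and 2 lower in females; the lower sum in mutant females, 452 to 693 against 789 to 1040 in wild-type females, stood beside a difference in Oxt, the oxytocin gene, of -2.46 (-1.76 in males).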

How the data were processed

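Total RNA of 24 pituitary samples, amplified from 500 ng, was hybridised to 24 Illumina bead arrays, per the labels' protocols. Per the file headers, the deposited raw table gives each of 45281 probes a linear bead intensity, a detection p-value and a bead count. GenomeStudio 2011.1 is named in the submitters' processing notes. The authors' processed intensity table served as an alternative; how it was normalized is not stated in the labels. The bead standard errors in 24 columns were not used.

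Background correction and quantile normalization used limma's neqc (version 3.58.1; offset 16, negative controls inferred from the detection p-values, R 4.3.3). A probe was kept at a detection p under 0.05 on at least 6 arrays (23133 probes). Probe symbols came from the platform annotation, updated through RefSeq: 34885 probes had 1 symbol (34807 matched), 18 several and 10378 none; the 3708 kept probes without 1 symbol were left out. The 33 regulators had 62 probes, of which 40 were kept. A gene was read from its brightest kept probe. A linear model (lmFit, eBayes) with 1 mean for each of the 4 groups gave adjusted p-values (Benjamini-Hochberg over 12027 genes), called under 0.05; values are mean ± SD over 6 arrays unless said otherwise. Precision is limited by the 6 arrays per group, with a median standard error of 0.117 on a log2 difference. The procedure was checked on simulated data.

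The regulators and lists were chosen with earlier results of these data known. All 33 are named, and from each pathway list up to 3 called genes with the smallest adjusted p in males or females; Hey2, Heyl and Id4 were named beyond that rule after their values were seen. Alternatives were another offset, 75th percentile scaling, the authors' table, no filter and a stricter one, the mean of a gene's probes, only the groups compared, background spread as a block, array weights and leaving out each array. Because raw signals were higher on arrays with higher sample numbers in every group, splits by sample number were added after the data were seen. RefSeq promoter windows (GRCm38.p6) were searched on both strands.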

Additional observations from a re-analysis of the deposited data

Results flagged for a closer look

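Genotype differences that differed between the sexes (limma interaction term, female minus male, adjusted p under 0.05) were found for 6 regulators: Id1 (-1.93), Id3 (-1.04), Id2 (-0.80), Insm1 (-0.45), Msx1 (-0.38) and Sox11 (0.60). Each was read from its brightest kept probe, and other probes of Msx1 and Sox11 were not called.

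In 4 of 96 gene and group combinations, 1 array stood apart from the 5 others of its group by Dixon's criterion, which chance alone meets in about 1 group of 20. Eya1 was 9.30 on mutant male 5, with the nearest mutant male at 9.43. Id3 was 6.29 on mutant female 6, with the nearest mutant female at 6.64. Lhx4 was 6.22 on wild-type male 6, with the nearest wild-type male at 5.33, and that array was the only wild-type one on which Lhx4 was detected. Zbtb20 was 10.84 on wild-type female 3, with the nearest wild-type female at 11.35. Leaving out any 1 array kept the female calls of Zbtb20 and Id3 and the male call of Eya1.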

How the results depend on the processing

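Direction held for every regulator called in a genotype comparison under all alternatives run. The numbers of regulators called were 8 to 10 in males, 12 to 15 in females, 5 to 7 for the difference between the sexes, 7 to 10 between the sexes in wild types and 0 in mutants when each array was left out; over all genes they were 5799 to 6291, 5374 to 5845, 1331 to 1884, 2808 to 3380 and 6 to 9. The mean of a gene's probes left 10 regulators (5931 genes) called in females and 8 (1808 genes) for the difference between the sexes. With background spread as a block, 3 regulators (995 genes) were called for the difference between the sexes, and 6 regulators (1450 genes) between wild-type sexes. That block holds all 6 wild-type males, so these counts cannot tell background apart from that group. Fitting only the mutant sexes called 2 genes. With the 12 lower sample numbers alone, counts over all genes were 4014 in males (8 regulators), 3611 in females (9 regulators), 185 for the difference (1 regulator), 1409 between wild-type sexes (4 regulators) and 4 between mutant sexes. With the 12 upper ones they were 4073 (6 regulators), 3676 (9 regulators), 311 (1 regulator), 979 (4 regulators) and 3. These sets hold 3 arrays per group, by construction fewer. In males Hes1 lost its call in the lower set, and Eya1 and Hey1 in the upper set. In females Msx1 and Zbtb20 lost theirs in both sets, Hes1 and Tbx19 in the lower set, and Eya1 and Sox11 in the upper set. With the lower and upper sample numbers as a block, 9 regulators (6277 genes) were called in males and 15 (5881 genes) in females. With sets of 4 consecutive sample numbers (1 array of each group) as a block, 9 regulators (6319 genes) were called in males and 15 (5888 genes) in females. The sets lost no call and gave 7 regulators (1761 genes) for the difference between the sexes and 10 (3356 genes) between wild-type sexes. Tbx19 in males and Sox4 in females gained a call in 13 and 14 settings, Six2 in males in 11 and Hey1 for the difference in 10. Slide as a block was not run, since the column names give no slide. The labels give no replicate number that groups share, and nothing in them says that consecutive numbers share a litter, day or slide. For Lhx4, Six4 and Neurod2, signal near the background limits what can be told.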
